A study of Mus musculus with 12 samples.

Results

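The adipocyte lipid and adipokine genes named for study were 10: Pck1, Fabp4, Adipoq, Plin1, Plin4, Retn, Adig, Cfd, Lpl and Lep. Every probe that the platform annotation gives to one of these symbols was taken, which found 12 of the 45281 probes on the array. These 12 probes covered 9 of the 10 genes, out of 19057 genes named on the array. Pck1, Plin1 and Lpl had 2 probes each, and Cfd was not analysed here. The genes were measured in carotid arteries of mice lacking fibulin-5, an elastic fibre protein, and of wild-type mice, all C57Bl/6J per the labels. In each animal the left common carotid artery was partially ligated, which disturbs flow in it, and the right one was left alone. Both were taken 1 day later. The 4 groups, with 3 one-colour Illumina arrays each, were the ligated left carotid of the knockout (KO LCA), its right carotid (KO RCA), the ligated left carotid of the wild type (WT LCA) and its right carotid (WT RCA). All 4 groups thus come from operated mice, and there is no group from mice without surgery. The labels write the knockout as FibVKO and do not give age, sex, diet or the targeted allele. The labels also do not say that the 3 arrays of a group come from separate mice, so each p-value measures only the spread between these samples.

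Adipocytes store fatty acids as triglyceride in a lipid droplet and secrete adipokines, hormones that act on appetite, insulin response and the vessel wall. Lipoprotein lipase frees fatty acids from circulating lipoproteins, fatty acid binding protein carries them inside the cell, PEPCK supplies the glycerol backbone, and perilipins coat the droplet. Carotid arteries lie in a sheath of perivascular fat, and some of it can stay on the vessel at dissection. In bulk RNA of this kind, fewer cells of a type and less RNA per cell cannot be told apart.

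The deposited values are linear probe intensities that start at 72.4 on every array, and probes of olfactory and vomeronasal receptors, genes of the nose, had array medians of 88.0 to 91.4, so fold changes of dim probes are compressed. As a yardstick for background, each array's 95th percentile over these 1504 receptor probes was used and is called the receptor level below. It lay between 95.7 and 126. A probe above it on all 3 arrays of at least 1 group was described in full. This held for 5 probes of 4 genes: both Pck1 probes, Fabp4, Plin4 and Lpl probe 2. Levels are compared within a probe only. The share of all probes above the receptor level was 26.7% to 41.5% in KO LCA, 25.0% to 31.5% in KO RCA, 11.7% to 32.7% in WT LCA and 20.9% to 39.0% in WT RCA. WT LCA replicate 3 stood apart, with the lowest share (11.7%), the highest receptor level (126) and the lowest median correlation with the other arrays (0.678, against up to 0.859), so several, but not all, results that rest on it are also given without it. The single Fbln5 probe read 80.6 to 97.4 and was above the receptor level on 0 of the 12 arrays, so it does not check the genotype labels.

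The promoters of 3 genes are shown, because all their KO LCA arrays lay above every KO RCA array and every WT LCA array. Fabp4 met the same condition, and no promoter entry for it or for Lpl was found in the table used. Each stretch runs 5′ to 3′ from 250 bases before to 50 bases after the gene start, from RefSeq on build GRCm38.p6. Pck1 lies at chr2:173152823-173153122 on the plus strand, Plin4 at chr17:56109733-56110032 on the minus strand and Adig at chr2:158502362-158502661 on the plus strand. Capitals mark matches to the motifs searched.
Pck1: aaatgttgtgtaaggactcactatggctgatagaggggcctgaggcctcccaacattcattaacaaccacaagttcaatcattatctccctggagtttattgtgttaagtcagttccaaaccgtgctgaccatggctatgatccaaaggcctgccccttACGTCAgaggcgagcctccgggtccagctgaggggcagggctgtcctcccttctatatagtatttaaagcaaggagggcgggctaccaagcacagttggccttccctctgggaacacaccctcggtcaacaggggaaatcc
Plin4: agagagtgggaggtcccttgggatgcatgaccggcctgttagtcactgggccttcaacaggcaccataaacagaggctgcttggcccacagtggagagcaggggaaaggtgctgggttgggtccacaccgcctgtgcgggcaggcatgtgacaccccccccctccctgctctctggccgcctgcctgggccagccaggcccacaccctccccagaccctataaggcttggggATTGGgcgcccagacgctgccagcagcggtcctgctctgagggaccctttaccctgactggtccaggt
Adig: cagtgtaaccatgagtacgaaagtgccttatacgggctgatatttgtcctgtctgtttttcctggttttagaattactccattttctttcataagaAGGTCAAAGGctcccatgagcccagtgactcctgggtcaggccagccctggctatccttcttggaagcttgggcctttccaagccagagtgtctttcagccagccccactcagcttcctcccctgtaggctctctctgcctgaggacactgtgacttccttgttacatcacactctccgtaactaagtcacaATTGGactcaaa
The motifs, searched on both strands, were AGGTCANAGG, the first letters of the direct repeat bound by PPAR and its partner RXR, TGACGT, the core of a cAMP response element, TTNNGCAA, a C/EBP-like motif, and the CCAAT box. Adig held AGGTCANAGG at bases 97 to 106 of the stretch, a match found in 0.658% of the 32851 promoters in the table. Pck1 held TGACGT on the reverse strand at bases 160 to 165, beginning 91 bases before the start, a match found in 7.51% of promoters. CCAAT lay on the reverse strand in Plin4 (bases 233 to 237, before the gene start) and in Adig (bases 289 to 293, after the gene start), and 37.4% of promoters hold it. TTNNGCAA, found in 10.8% of promoters, matched none of these 3 stretches. The matches did not overlap each other. They describe letters and not binding.

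**Figure D1:**
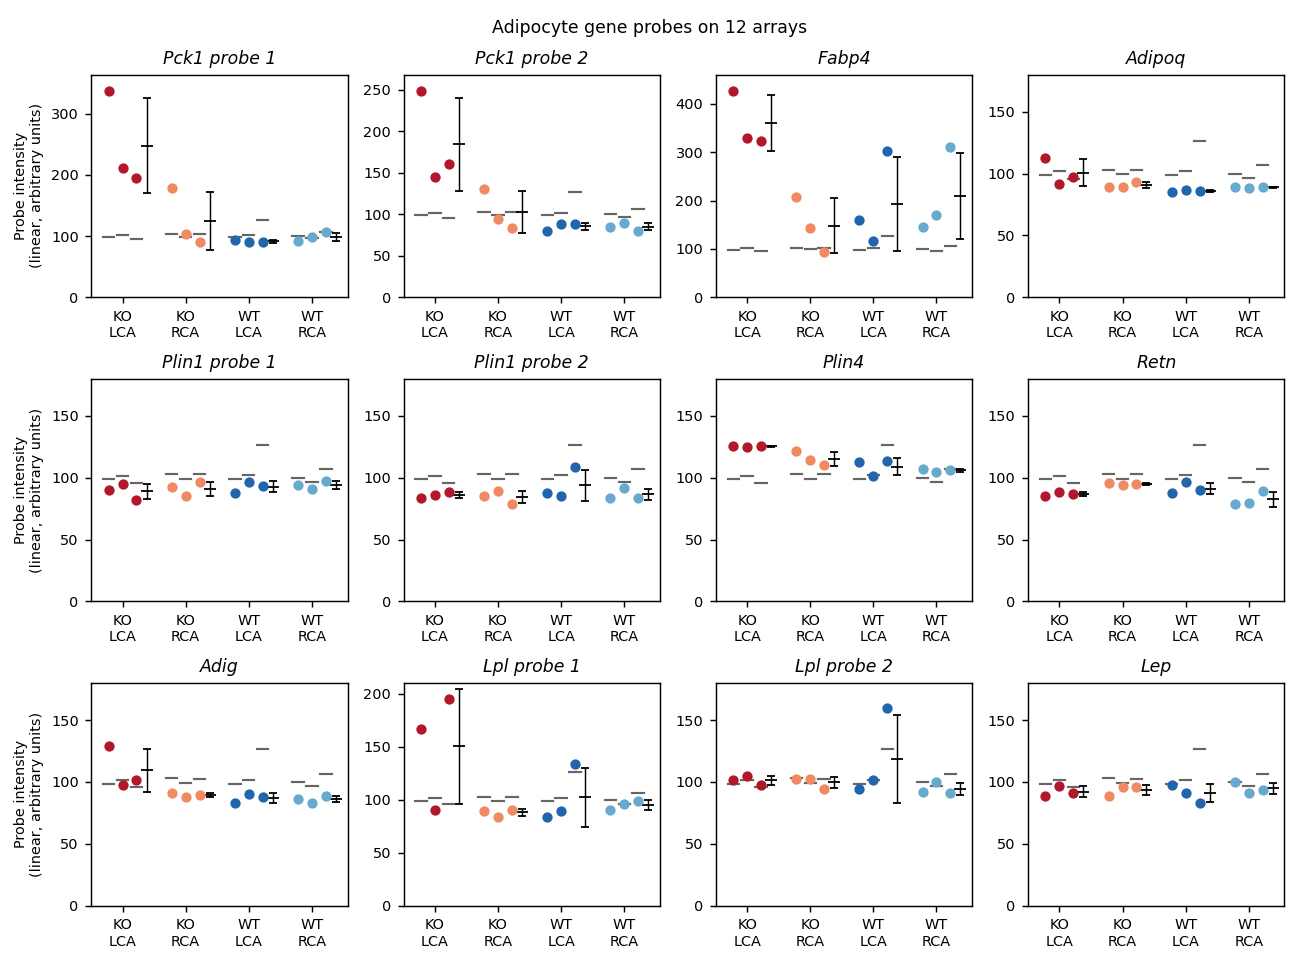
Intensity of each of the 12 probes (vertical axis, linear, arbitrary units, from 0) on each array, by group along the horizontal axis, 1 point per array, with the group mean ± SD to the right and a short grey line at each array's receptor level. Pck1 and Fabp4 have their 3 highest points in KO LCA, while Plin1, Retn and Lep stay below the receptor level on all arrays.

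Pck1 encodes cytosolic PEPCK, which makes glycerol backbone for triglyceride in adipocytes and is known in liver and kidney for making glucose. Its probe 1 read 337, 212 and 194 in KO LCA (replicates 1, 2 and 3), 178, 104 and 90.5 in KO RCA, 94.4, 90.9 and 89.6 in WT LCA, and 91.9, 98.6 and 106 in WT RCA. Every KO LCA array was thus above every other array, and KO RCA replicate 1 came next. Group means were 248 ± 77.8 in KO LCA, 124 ± 47.2 in KO RCA, 91.6 ± 2.49 in WT LCA and 98.8 ± 6.99 in WT RCA (SD, n = 3 each). In the knockout, ligated arteries differed from right ones by 1.02 ± 0.25 on the log2 scale (difference ± SE, limma, unadjusted p = 0.00262, adjusted p = 0.632). Between ligated arteries, KO minus WT was 1.39 ± 0.25 (limma, unadjusted p = 0.000294, adjusted p = 0.143). Because no WT LCA array was above the receptor level, the fold is best read as at least 2.22-fold higher in KO LCA, with each WT LCA array set no lower than its own receptor level. None of these passed the adjusted threshold of 0.05.

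Probe 2 of Pck1 gave the same order of groups. It read 248, 145 and 160 in KO LCA, 131, 93.8 and 83.6 in KO RCA, 80.1, 88.3 and 87.7 in WT LCA, and 85.1, 89.0 and 80.3 in WT RCA. Here too the KO LCA arrays were the 3 highest of the 12, and KO RCA replicate 1 came next. The difference between ligated and right arteries of the knockout was 0.83 ± 0.20 (limma, adjusted p = 0.632), and that between KO and WT ligated arteries was 1.07 ± 0.20 (limma, adjusted p = 0.150), at least 1.65-fold. In wild-type mice the ligated and right arteries overlapped for both probes, with differences of -0.11 ± 0.25 and 0.01 ± 0.20. In right arteries, KO minus WT was 0.27 ± 0.25 for probe 1 and 0.25 ± 0.20 for probe 2. Both rest on KO RCA replicate 1, without which they were -0.03 and 0.06. Within groups the probes moved together: the deviations of their log2 values from the group means correlated at 0.90 over the 12 arrays, as a description of probes that share arrays and a gene.

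Fabp4 carries fatty acids inside adipocytes and is also made by capillary endothelium and macrophages. It read 427, 329 and 323 in KO LCA, 207, 143 and 93.4 in KO RCA, 160, 117 and 302 in WT LCA, and 146, 171 and 311 in WT RCA. The KO LCA arrays were the 3 highest of the 12, but replicate 3 of each wild-type artery came close to them. The means were 360 ± 58.0 in KO LCA, 148 ± 57.1 in KO RCA, 193 ± 96.5 in WT LCA and 209 ± 89.0 in WT RCA (SD, n = 3 each). The ligated artery exceeded the right one in the knockout by 1.34 ± 0.41 on the log2 scale (limma, unadjusted p = 0.00815, adjusted p = 0.632). KO minus WT was 1.00 ± 0.41 in ligated arteries (limma, adjusted p = 0.742) and -0.49 ± 0.41 in right arteries (limma, adjusted p = 1.00). The value for right arteries was -0.17 without WT RCA replicate 3 and -0.20 without KO RCA replicate 3. Without WT LCA replicate 3, the difference between ligated arteries was 1.38, and without WT LCA replicate 2 it was 0.70. Ligated and right arteries of the wild type differed by -0.15 ± 0.41, with overlap, and by -0.53 without WT LCA replicate 3.

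Lpl encodes lipoprotein lipase, made by adipocytes, muscle cells and macrophages. Its probes disagreed. Probe 1 read 167, 90.0 and 195 in KO LCA, 89.6, 84.0 and 90.4 in KO RCA, 83.6, 89.1 and 134 in WT LCA, and 90.0, 96.4 and 98.5 in WT RCA. It was above the receptor level on 2 KO LCA arrays and on WT LCA replicate 3 only. The knockout's ligated and right arteries overlapped and differed by 0.70 ± 0.26 (limma, unadjusted p = 0.0236, adjusted p = 0.633), at least 1.41-fold, and by 0.48 to 1.04 when 1 of their arrays was left out. Probe 2 read 102, 105 and 97.7 in KO LCA, 102, 103 and 94.4 in KO RCA, 94.7, 101 and 159 in WT LCA, and 92.1, 99.7 and 91.2 in WT RCA. Its highest value was on WT LCA replicate 3, and the other 11 arrays lay within 91.2 to 105. The difference in the knockout was 0.02 ± 0.16 for probe 2. KO minus WT in ligated arteries was 0.52 ± 0.26 for probe 1 (limma, adjusted p = 0.792) and -0.18 ± 0.16 for probe 2 (limma, adjusted p = 0.809). Without WT LCA replicate 3, these values were 0.73 for probe 1 and 0.05 for probe 2.

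Perilipins coat the lipid droplet, and Plin1 is the form that guards it in mature adipocytes. Neither Plin1 probe was above the receptor level on any array. Probe 1 ranged over 82.2 to 97.3 and probe 2 over 78.8 to 108, with the 108 on WT LCA replicate 3, and all 4 groups overlapped. Plin4, a perilipin of small droplets in adipocytes and muscle, was above the receptor level on 9 of the 12 arrays. It read 126, 125 and 126 in KO LCA, 122, 114 and 110 in KO RCA, 112, 101 and 113 in WT LCA, and 107, 105 and 106 in WT RCA. All KO LCA arrays lay above all others, with an SD of 0.657, and all KO RCA arrays lay above all WT RCA arrays. The differences were small: 0.12 ± 0.06 for ligated minus right arteries in the knockout (limma, unadjusted p = 0.0547, adjusted p = 0.662), 0.20 ± 0.06 for KO minus WT in ligated arteries (limma, unadjusted p = 0.00441, adjusted p = 0.467) and 0.12 ± 0.06 for KO minus WT in right arteries (limma, adjusted p = 1.00). Adig encodes adipogenin, a small membrane protein of adipocytes that acts in lipid droplet formation. It read 129, 97.6 and 101 in KO LCA, 91.4, 87.8 and 89.7 in KO RCA, 83.1, 90.6 and 87.6 in WT LCA, and 86.2, 83.3 and 88.2 in WT RCA. It was above the receptor level on 2 KO LCA arrays and on none of the other groups. Its difference in the knockout was 0.28 ± 0.09 (limma, adjusted p = 0.633), at least 1.07-fold, and KO minus WT in ligated arteries was 0.32 ± 0.09 (limma, adjusted p = 0.524), with a bound of 1.00-fold. Both were smaller without KO LCA replicate 1, at 0.15 and 0.19.

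The 3 adipokines measured were at or near background. Adipoq, which encodes adiponectin, the most abundant adipokine in plasma, read 113, 91.6 and 97.2 in KO LCA, 89.4, 89.4 and 93.4 in KO RCA, 85.1, 86.7 and 85.9 in WT LCA, and 89.0, 88.5 and 89.2 in WT RCA. Only KO LCA replicates 1 and 3 were above the receptor level. This probe did not pass the filter on dim probes, so it was not tested in the main fit. All its KO LCA arrays lay above all its WT LCA arrays, with a difference of 0.22 ± 0.07, which was 0.14 without KO LCA replicate 1. No WT LCA array was above the receptor level, and set against that level the KO LCA mean gave no bound above 1, so no fold is given. Retn encodes resistin, an adipokine of mouse fat. It read 84.9, 88.5 and 87.1 in KO LCA, 96.1, 94.1 and 94.9 in KO RCA, 87.4, 96.5 and 90.1 in WT LCA, and 78.8, 79.5 and 89.6 in WT RCA, below the receptor level on every array. Its KO RCA arrays lay above its KO LCA and WT RCA arrays, the reverse of Pck1 within the knockout. The log2 differences were -0.13 ± 0.06 for ligated minus right in the knockout and 0.20 ± 0.06 for KO minus WT in right arteries (limma, adjusted p = 0.662 and 1.00). Both groups are below background there, so no fold is given. Lep, which encodes the satiety hormone leptin, ranged over 83.3 to 99.7, was never above the receptor level, and overlapped between all groups.

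The label was checked against 8 genes that mark mature adipocytes: Adipoq, Plin1, Lep, Retn, Cfd, Cidec, Pparg and Lipe. The 7 with a probe had 0 genes above the receptor level on all arrays of a group, in any of the 4 groups. Per array, 0 to 3 of the 7 were above it in KO LCA, 0 in KO RCA, 0 to 1 in WT LCA and 0 to 1 in WT RCA. Their summed intensity was 637 to 711 in KO LCA, 638 to 668 in KO RCA, 637 to 708 in WT LCA and 629 to 639 in WT RCA. Cidec, a protein that fuses lipid droplets, read 141, 92.6 and 102 in KO LCA and at most 98.0 elsewhere, and was above the receptor level on 2 arrays, both KO LCA. Lipe, hormone-sensitive lipase, which breaks down stored triglyceride, read 85.4, 87.0 and 90.0 in KO LCA, 87.6, 90.3 and 99.7 in KO RCA, 95.1, 86.4 and 159 in WT LCA, and 81.4, 98.2 and 88.1 in WT RCA. It was above the receptor level on WT LCA replicate 3 and WT RCA replicate 2, and KO minus WT in ligated arteries was -0.32 ± 0.19 (limma, adjusted p = 0.792). That difference rests on the 159 of WT LCA replicate 3, and no value without this array is given. What part adipocytes on the vessel have in the values of the genes described was not tested.

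**Figure D2:**
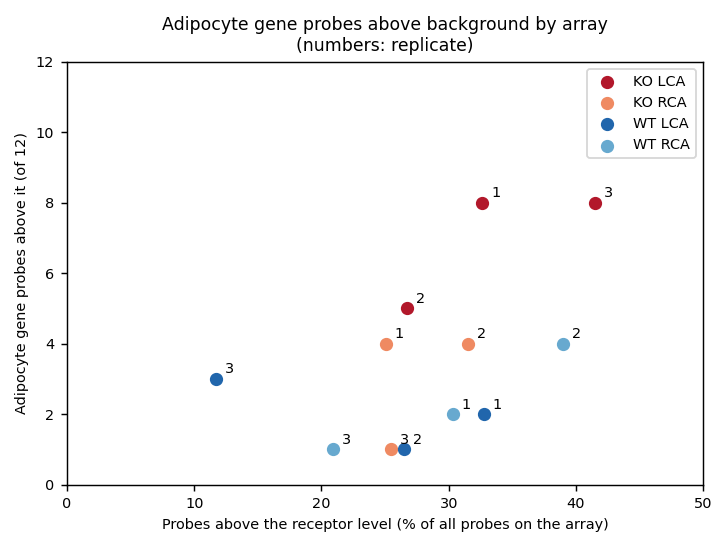
Number of the 12 probes above the receptor level (vertical axis) against the share of all probes above it (horizontal axis, %), 1 point per array, coloured by group and numbered by replicate. KO LCA arrays had 8, 5 and 8 probes above it, and the other 9 arrays had 1 to 4, including arrays with a like share of all probes.

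Counted by array, 8, 5 and 8 of the 12 probes were above the receptor level in KO LCA, 4, 4 and 1 in KO RCA, 2, 1 and 3 in WT LCA and 2, 4 and 1 in WT RCA. KO LCA replicate 1 was the highest of all 12 arrays for 6 probes (both Pck1 probes, Fabp4, Adipoq, Plin4 and Adig). KO RCA replicate 1 was the highest of its group for 6 probes, of which 5 are the same (both Pck1 probes, Fabp4, Plin4 and Adig). 

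Ligation in the knockout gave 0 of the 10 probes that passed the filter at an adjusted p under 0.05 (limma), where the whole table gave 0%. At an unadjusted p under 0.05, 5 probes of 4 genes were higher in KO LCA than in KO RCA (both Pck1 probes, Fabp4, Adig and Lpl probe 1) and 0 were lower, against 7.62% of the 32606 probes tested, 3.71% higher and 3.9% lower. For 6 probes the arrays of the groups did not overlap, 5 being higher and 1 lower (Retn), against 20.6% of all probes tested, 10.3% higher and 10.2% lower. Since a probe could pass the filter through its KO LCA arrays alone, these counts describe the 10 and support nothing. Over all 12 probes the median difference was 0.13, with 9 above 0, and the median over the whole table was 0.00. Without KO LCA replicate 1 the median was 0.09 and 4 probes were under an unadjusted p of 0.05, Lpl probe 1 no longer among them.

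Ligation in the wild type gave 0 adjusted calls, again where the table gave 0%. At an unadjusted p under 0.05, 1 probe was counted, Retn, with 0.15 ± 0.06 (limma, unadjusted p = 0.0370), against 6.79% of all probes, 2.71% higher and 4.07% lower. No probe had groups that did not overlap, against 10.9% of all, 4.8% higher and 6.07% lower. The median over the 12 probes was 0.01, with 7 above 0. Without WT LCA replicate 3 it was -0.01.

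Between ligated arteries, KO minus WT gave 0 adjusted calls among the 10, where the table gave 0.0368%. At an unadjusted p under 0.05, 5 probes were higher in KO LCA than in WT LCA and 0 lower, against 6.31% of all probes tested, 4.4% higher and 1.91% lower. They were both Pck1 probes, Fabp4, Plin4 and Adig, and the same 5 had groups that did not overlap, against 12.6% of all, 7.56% higher and 5.07% lower. The median over the 12 probes was 0.21, with 8 above 0, against -0.01 over the whole table. Without WT LCA replicate 3, Lpl probe 1 joined them under both rules, at 6.6% and 23.7% of all probes, and the median was 0.23. This comparison and the one of ligated with right arteries in the knockout share the KO LCA arrays, so their counts are not separate evidence. Here too a probe could pass the filter through its KO LCA arrays alone, so the counts describe the 10 and support nothing.

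Between right arteries, KO minus WT gave 0 adjusted calls, where the table gave 0%. At an unadjusted p under 0.05 only Retn was counted, against 4.2% of all probes, 2.3% higher and 1.9% lower. Retn and Plin4 had groups that did not overlap, both higher in KO RCA, against 11.6% of all, 6.02% higher and 5.56% lower. The median over the 12 probes was 0.04, with 7 above 0. The interaction, which is the ligation difference of the knockout minus that of the wild type, gave 0 adjusted calls where the table gave 0%. At an unadjusted p under 0.05, 3 probes were counted above 0 and 1 below, against 3.61% of all probes, 2.28% above 0 and 1.33% below. Those above 0 were Pck1 probe 1 at 1.12 ± 0.36, Pck1 probe 2 at 0.82 ± 0.29 and Fabp4 at 1.49 ± 0.57, and Retn stood at -0.28 ± 0.09 (limma, adjusted p = 0.921 for each). The genotypes were therefore not shown to differ in their response to ligation for any of these genes. The interaction counts have the same limit, that a probe could pass the filter through its KO LCA arrays alone.

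**Figure D3:**
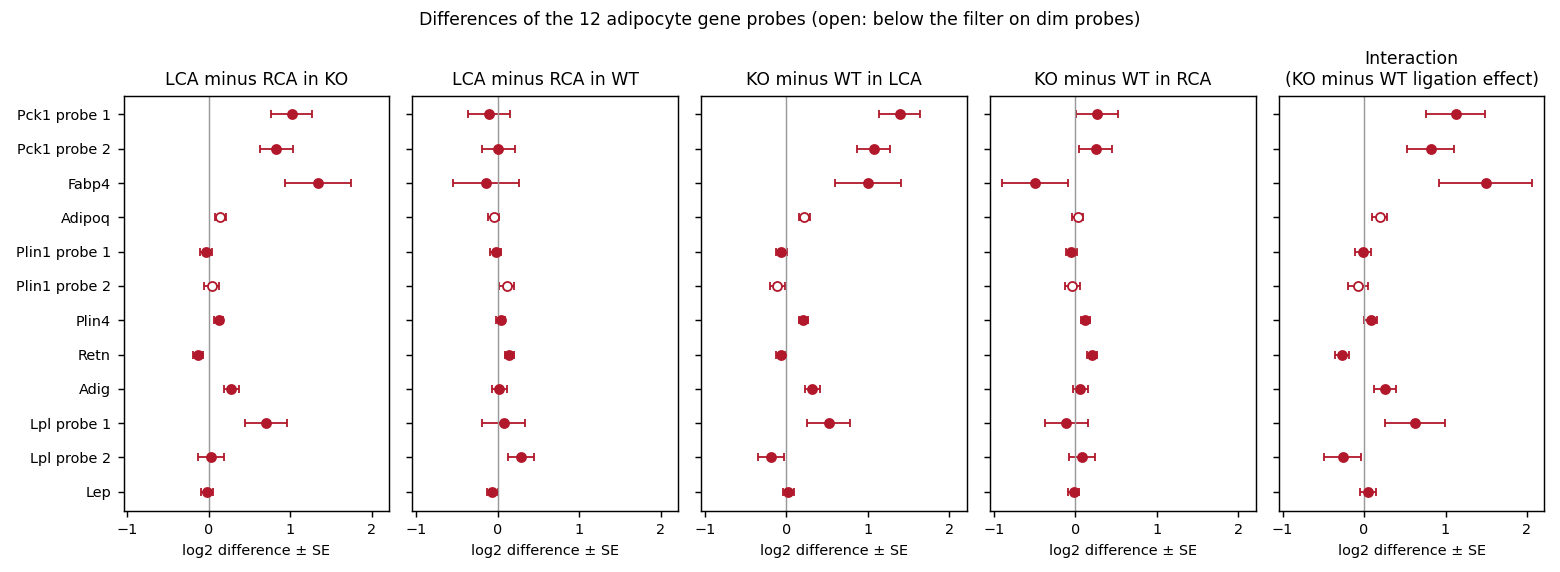
Difference on the log2 scale (horizontal axis, point ± SE from limma) for each of the 12 probes (rows) in the 5 comparisons, with open points for the 2 probes below the filter on dim probes. Pck1 and Fabp4 lie farthest to the right in KO ligated minus right arteries, in KO minus WT ligated arteries and in the interaction, and near 0 in wild-type ligated minus right arteries.

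Other genes of the fat cell were read in 8 lists. In these lists, that cover lipid droplet and lipolysis, fat synthesis, fatty acid uptake, adipocyte transcription factors, other adipokines, their receptors, brown and beige fat and further adipocyte markers, 95 of 103 genes beyond the 10 studied had a probe and 83 passed the filter. None of the 83 passed the adjusted threshold in any comparison (limma). Counted at an unadjusted p under 0.05, 2 were higher and 2 lower in KO LCA than in KO RCA, where 3.71% of all probes tested were higher and 3.9% lower. Against WT LCA, 6 were higher and 2 lower in KO LCA, where 4.4% of all probes were higher and 1.91% lower. Their median differences were 0.04 and 0.01. Of the 95 genes, 26 were above the receptor level on all 3 arrays in KO LCA, 23 in KO RCA, 13 in WT LCA and 23 in WT RCA. The WT LCA count is lowered by the receptor level of 126 on WT LCA replicate 3. Insr and Retsat, for example, failed in WT LCA on that array only.

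Several of these lists gave 0 genes at an unadjusted p under 0.05 in the knockout's ligated minus right arteries: lipid droplet and lipolysis (0 of 16), fat synthesis and glucose use (0 of 15), fatty acid uptake and lipase partners (0 of 9), transcription factors (0 of 9) and other adipokines (0 of 10), where 7.62% of all probes tested did. The remaining lists gave 1 of 7 higher (adipokine receptors), 1 of 7 higher (brown and beige fat) and 2 of 12 lower (further adipocyte markers). In KO minus WT ligated arteries these remaining lists gave 1, 2 and 1 higher and 0 lower, among them Cpt1b at 0.16 ± 0.05 (limma, adjusted p = 0.605). The 5 lists named first gave 2 higher and 2 lower there, where 6.31% of all probes were under that p. The higher ones in those 5 were Cebpb, a factor of early fat cell differentiation, at 0.14 ± 0.06 and Retnla, a resistin relative made by macrophages and fat, at 0.17 ± 0.06. The lower ones were Scd2, a fatty acid desaturase, at -0.55 ± 0.20 and Cebpd, another early factor, at -0.21 ± 0.08. Dio2, the enzyme that activates thyroid hormone and is used in brown fat, read 109 to 132 in KO LCA, 84.9 to 91.9 in KO RCA, 86.6 to 87.4 in WT LCA and 82.9 to 92.4 in WT RCA. It was above the receptor level on all 3 KO LCA arrays and on none of the others, with differences of 0.43 ± 0.07 against KO RCA and 0.45 ± 0.07 against WT LCA (limma, adjusted p = 0.632 and 0.0899). Against the receptor level of those arrays it was at least 1.17-fold higher than in KO RCA and at least 1.10-fold higher than in WT LCA. Ucp1, of the same list, averaged 89.1 in KO LCA and 90.3 in KO RCA, with differences of -0.02 and 0.06, and Bmp8b had -0.07 and -0.08. Of the 9 genes of that list with a probe, 4 and 7 were above 0 in these comparisons, with medians of -0.02 and 0.07. Aldh1a1, a retinaldehyde dehydrogenase, averaged 107 ± 4.23 in KO LCA, 122 ± 8.02 in KO RCA, 84.4 ± 3.01 in WT LCA and 94.7 ± 5.18 in WT RCA (SD, n = 3 each). It was above the receptor level on all knockout arrays and on none of the wild type. KO minus WT was 0.35 ± 0.06 in ligated and 0.37 ± 0.06 in right arteries (limma, adjusted p = 0.143 and 0.361), at least 1.21-fold in right arteries, and ligated minus right in the knockout was -0.19 ± 0.06 (limma, adjusted p = 0.633). Insr, the insulin receptor, averaged 195 ± 59.1 in KO LCA, 107 ± 4.54 in KO RCA, 106 ± 15.4 in WT LCA and 118 ± 14.2 in WT RCA (SD, n = 3 each), with differences of 0.82 ± 0.21 and 0.84 ± 0.21 (limma, adjusted p = 0.632 and 0.398).

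**Figure D4:**
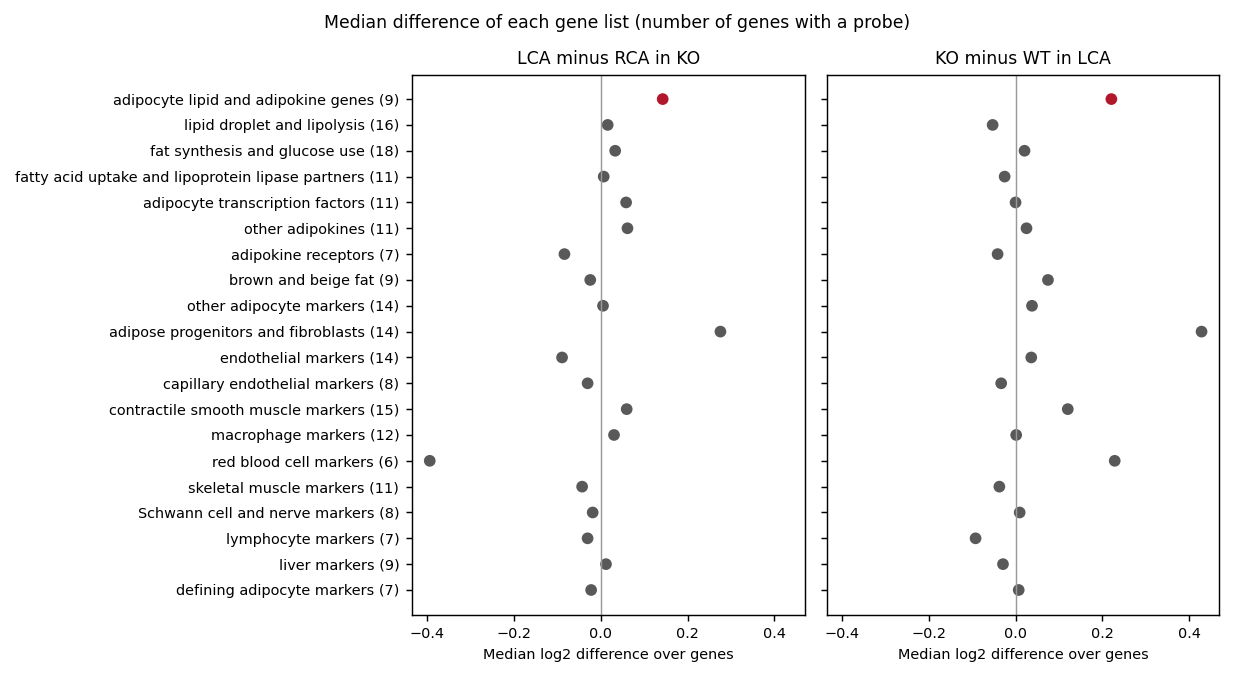
Median log2 difference (horizontal axis) of the genes of each list (rows) in KO LCA minus KO RCA and in KO LCA minus WT LCA. The adipocyte genes described here stand at 0.14 and 0.22 over 9 genes, the list of adipose progenitors and fibroblasts at 0.28 and 0.43, and the lists of lipid droplet and fat synthesis genes near 0.

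Genes of adipose progenitors and fibroblasts, connective tissue cells of the outer vessel wall and of fat, were read as a list of 14, with 0 adjusted calls in either comparison of KO LCA (limma). Without adjustment, at p under 0.05, 6 of 14 genes were higher and 0 lower in KO LCA against KO RCA (3.71% and 3.9% of all probes tested), and 7 were higher and 0 lower in KO LCA against WT LCA (4.4% and 1.91%). The medians over the 14 were 0.28 and 0.43. The same shares of all probes apply to the other counts of cell type markers in these comparisons. The other way lay Pi16, a marker of adventitial progenitors, with means of 334 in KO LCA and 558 in KO RCA (-0.77 ± 0.54, limma, adjusted p = 0.747). Cd34, with 154 and 200, and Mfap5, with 183 and 201, were also below KO RCA in KO LCA on average, without passing the test. The summed intensity of the 14 was 2184 to 2853 in KO LCA, 2096 to 2201 in KO RCA, 1473 to 1959 in WT LCA and 1949 to 2727 in WT RCA, and 11, 6, 1 and 5 of them were above the receptor level on all arrays in KO LCA, KO RCA, WT LCA and WT RCA. The receptor level of 126 on WT LCA replicate 3 lowers the WT LCA count. Mfap5, Fbln1 and Col1a2, with WT LCA maxima of 123, 125 and 123, were above it on 2 arrays and failed only on that one. Dpt, a matrix protein of fibroblasts, averaged 236 ± 79.5 in KO LCA, 112 ± 33.7 in KO RCA, 106 ± 18.4 in WT LCA and 95.2 ± 1.30 in WT RCA (SD, n = 3 each), and was 1.06 ± 0.25 above KO RCA and 1.12 ± 0.25 above WT LCA (limma, adjusted p = 0.632 and 0.294). Of the markers of endothelium, another source of Fabp4, 0 of 14 were higher and 2 lower in KO LCA against KO RCA, with a median of -0.09, and 1 was higher and 1 lower in KO LCA against WT LCA, with a median of 0.04. Among macrophage markers, 1 of 10 was higher and 0 lower in each of these comparisons. It was Cd163, at 0.74 ± 0.11 against KO RCA and 0.74 ± 0.11 against WT LCA (limma, adjusted p = 0.632 and 0.0644). Cd163 averaged 148 in KO LCA, 88.5 in KO RCA, 88.6 in WT LCA and 94.4 in WT RCA. It was above the receptor level on all 3 KO LCA arrays and on 1 WT RCA array. Adgre1, at -0.09 and -0.11, Csf1r, at -0.11 and -0.11, and Cd14, at -0.04 and -0.04, lay the other way in these comparisons. Of the 12 macrophage genes with a probe, 8 and 6 were above 0, with medians of 0.03 and 0.00. Markers of contractile smooth muscle, the main cell of the carotid wall, summed over 15 genes to 3561 to 5132 in KO LCA, 2376 to 3247 in KO RCA, 1425 to 2406 in WT LCA and 1821 to 1982 in WT RCA. The genes share in this sum unevenly. Acta2 averaged 999, 748, 287 and 188 in these groups. Myh11, at 102, 103, 92.9 and 98.1, and Cnn1, at 93.5, 98.4, 95.5 and 95.6, were near the receptor level. The endothelial gene Pecam1 averaged 1793, 1143, 1086 and 1084, with KO LCA arrays spread over 849 to 3593 (SD 1560). Its differences were 0.34 ± 0.49 against KO RCA and 0.40 ± 0.49 against WT LCA (limma, adjusted p = 0.913 and 0.875). Of the 14 smooth muscle genes tested, 6 were higher and 0 lower in KO LCA against WT LCA at an unadjusted p under 0.05, and 1 of them, the tropomyosin gene Tpm1, passed the adjusted threshold at 1.98 ± 0.25 (limma, adjusted p = 0.0476). With an intensity trend in eBayes, 0 probes of the whole table passed in that comparison. Against KO RCA, 1 of the 14 smooth muscle genes was higher and 0 lower in KO LCA at that unadjusted p, with a median of 0.06 over the 15. In right arteries, 4 of them were higher and 0 lower in KO than in WT, against 2.3% and 1.9% of all probes. Liver markers, checked because Pck1 is strong in liver, had 0 of 9 genes above the receptor level on all arrays of KO LCA, 1 of KO RCA, 0 of WT LCA and 1 of WT RCA. Serpina1a, a plasma protease inhibitor made in liver, averaged 95.9 in KO LCA, 177 in KO RCA, 105 in WT LCA and 186 in WT RCA, with ligated minus right at -0.76 ± 0.31 in the knockout and -0.79 ± 0.31 in the wild type (limma, adjusted p = 0.640 and 0.691). Of 6 red blood cell markers, 0 were higher and 2 lower in KO LCA against KO RCA at an unadjusted p under 0.05, with a median of -0.39, and 0 were higher or lower in KO LCA against WT LCA, with a median of 0.23. The globin gene Hba-a1 averaged 655 in KO LCA, 1479 in KO RCA, 483 in WT LCA and 395 in WT RCA. Its difference was -1.17 ± 0.39 for ligated minus right in the knockout and 2.06 ± 0.39 for KO minus WT in right arteries (limma, adjusted p = 0.632 and 0.446). What part the fibroblast, smooth muscle, blood and other cell types have in the Pck1 and Fabp4 values was not tested.

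The genes whose log2 profile over the 12 arrays was most like that of a described probe were sought among 6390 genes with a probe above the receptor level in at least 1 group. For Pck1 probe 1 the Pearson correlation was 0.93 for Efhd1, 0.93 for Tmtc3, 0.92 for Angptl7, 0.90 for Fxyd1 and 0.89 for Mxra7. Pck1 probe 2 had Efhd1 at 0.96, Tmtc3 at 0.93, Dio2 at 0.92, Angptl7 at 0.91 and Esm1 at 0.91. Efhd1, Tmtc3 and Angptl7 stood in both. For Efhd1 and probe 2, Spearman's rho was 0.87 and the correlation of deviations from the group means was 0.83. Other pairs had lower values, such as 0.76 and 0.63 for Efhd1 and 0.57 and 0.69 for Angptl7 with probe 1. With probe 2, Dio2 had 0.65 and 0.59, and Esm1 had 0.65 and 0.62. Efhd1 at 91.5 to 117 and Tmtc3 at 91.6 to 125 lay near the receptor level. The Fabp4 profile was closest to Tmem38b at 0.87, Rps25 at 0.85, Krtap19-9b at 0.84, Spryd3 at 0.84 and Serping1 at 0.84, with 0 genes shared with either Pck1 probe. The mean of the 5 described probes was closest to Bri3 at 0.90, Rbm15b at 0.89, Pdpn at 0.87, Gadd45g at 0.87 and Rnd3 at 0.86. These are descriptions over 12 arrays that share groups and normalization, and no member of the fat pathway lists other than Dio2 is among them.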

How the data were processed

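RNA from carotid arteries was hybridised to 12 one-colour Illumina arrays with biotin label, per the labels. The authors deposited linear intensity values, already normalized, for 45281 probes. The sorted values of the arrays differ by at most 0.00562 of their size, as quantile normalization leaves them. Scanner software, background step, normalization tool and slide are not stated in the labels, so no slide block could be run. Precision is limited by the number of arrays.

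Probe names came from the platform annotation, in which 34885 had 1 symbol, 18 several and 10378 none. The filter on dim probes kept the 32606 that reached the median of the array on 3 arrays or more. All 12 arrays entered 1 limma fit (version 3.58.1, R 4.3.3) of log2 intensity on the 4 groups, with eBayes and 5 comparisons. Two-sided p-values were adjusted over the kept probes (Benjamini-Hochberg, threshold 0.05). The procedure was tested on simulated data. The 20 gene lists, the genes described being one, were chosen with earlier results of these data known. By the rule for named genes, a probe above the receptor level on all 3 arrays of a group was described in full and others by range, with array values added for Adipoq, Retn, Adig and Lpl probe 1 after their values were seen. From each list at most 3 genes of smallest p were named by that rule, and 5 genes of like pattern for each profile sought. Further list genes, among them Adgre1, Csf1r, Cd14, Ucp1 and Bmp8b, were named after their values were seen. Lpl probe 2 and Plin4 have no such search of their own. An "at least" fold sets each array of the dimmer group no lower than its own receptor level. 25 alternatives were run, and counts at an unadjusted p and of groups that do not overlap were recomputed without each array, as were the differences of Adig and Adipoq, which was added after seeing the data.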

Additional observations from a re-analysis of the deposited data

How the results depend on the processing

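Over 25 alternatives, the count of adipocyte gene probes at an adjusted p under 0.05 was 0 in every comparison that each could give. The lowest adjusted p of any described probe was 0.0899, for Pck1 probe 1 in KO minus WT ligated arteries without KO RCA replicate 1, and that result ranged up to 0.353. Some differences changed sign. With cyclic loess, ligation in the wild type gave 0.0102 for Pck1 probe 1 and 0.0340 for Fabp4, and with array weights it gave -0.000252 for Plin4. Leaving out 1 array at a time gave -0.0290 to 0.0548 for Pck1 probe 2, -0.53 to 0.18 for Fabp4 and -0.00919 to 0.0527 for Adig in wild-type ligation, -0.0151 to 0.0502 for Lpl probe 2 in knockout ligation, -0.0259 to 0.46 for Pck1 probe 1 in KO minus WT right arteries, and -0.33 to 0.0494 for Lpl probe 2 in KO minus WT ligated arteries. Subtracting each array's receptor median (floor of 16) gave values that the floor sets in part, because 2 of 3 KO RCA arrays and all 3 of WT LCA lay on it for each Pck1 probe, and 1 KO RCA array for Fabp4. There Pck1 probe 1 stood at 2.39 in knockout ligation and 3.21 in KO minus WT ligated arteries, Fabp4 at 2.53 and 1.84, and the medians over the 12 probes at 0.32, 0.32 and 0.25 in these comparisons and the interaction. The alternatives that keep the coefficients (filter, gene level, eBayes trend) have no median of their own, and 4 differences of exactly 0 after that subtraction have no direction. Without 1 array, the count at an unadjusted p under 0.05 was 4 to 7 in knockout ligation, 4 to 6 in KO minus WT ligated arteries, 3 to 6 in the interaction, 0 to 2 in wild-type ligation and 1 to 2 in KO minus WT right arteries. Over the whole table, KO minus WT ligated arteries had 12 probes called in the main fit, 1 with no filter, 1 at gene level, 4 with array weights, 7 with cyclic loess, 23 after the subtraction, 0 with the eBayes trend, 0 with the 2 groups alone, 0 with the share of probes above the receptor level as a covariate, and 0 to 26 without 1 array.

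Replicate numbers are shared between arteries, and the labels do not say whether same-numbered arteries come from the same mouse. The deviations of same-numbered ligated and right arteries correlated at -0.02, -0.02 and 0.04 in the knockout. In the wild type these correlations were 0.04, 0.05 and 0.09. Such values cannot show whether the arteries share a mouse, and the main fit did not treat them as pairs. With the number within genotype as a fixed replicate block, the count of calls was 0 and knockout ligation had an adjusted p of 0.242 for Pck1 probe 1 and 0.699 for Pck1 probe 2 and Fabp4. As a random block (consensus correlation 0.07) all 3 had 0.530. The fixed block cannot give KO minus WT, and the fit of 2 groups alone cannot give the interaction. The main limit is signal: 7 of the 12 probes were in no group above the receptor level on all arrays, and compressed folds near the floor make a missed threshold no sign of equal levels.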
